A study of Mus musculus with 6 samples.

Results

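A set of 10 genes of extracellular proteolysis were followed through 6 mouse RNA sequencing libraries, 3 labelled KO and 3 labelled WT. They were taken by symbol from the 21399 genes of each table: the matrix metalloproteinases Mmp8, Mmp9, Mmp12, Mmp14 and Mmp19, the membrane proteases Adam8 and Adam17, and the tissue inhibitors Timp1, Timp2 and Timp3. Levels are in FPKM, fragments scaled by transcript length and by library depth. All 10 averaged 1 FPKM or more, the level from which genes were tested. In the KO group, primary microglia came from knockout mice carrying the CD45.2 form of the leukocyte protein CD45. In the WT group they came from wild-type mice with the same form. Both groups were deprived of oxygen and glucose, a culture model of ischaemia, and both then received peritoneal macrophages of CD45.1 mice on reoxygenation. The design text names the sorted cells microglia, yet the CD45.1 mark by which they were sorted belongs to the added macrophages, and the sample labels name both cell types. The deleted gene, the way it was deleted, the ages, the times and any pooling of animals were not stated in the labels. The title names PPARα, the lipid-sensing nuclear receptor encoded by Ppara. The labels leave unsaid whether libraries within a group are separate cultures, so every p-value rests on spread between libraries that may be technical.

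Matrix metalloproteinases are zinc-dependent proteases made as inactive precursors, with a propeptide whose cysteine blocks the zinc until it is removed. Most are secreted, while some, such as MMP14, sit in the cell membrane. ADAM proteases share this chemistry but mainly shed the outer parts of membrane proteins, and ADAM17 is the enzyme that releases TNF. TIMPs bind the active site of matrix metalloproteinases and block it. In ischaemic brain this system is known for breakdown of the blood-brain barrier and for later matrix repair, and macrophages and neutrophils are among its sources.

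A pair of the 10 genes share a gene cluster, with other Mmp genes between them. Mmp8 (chr9:7558456-7568485) and Mmp12 (chr9:7344381-7369499) lie on the plus strand of a cluster of 10 Mmp genes on mouse chromosome 9 (mm10, GENCODE M21). RefSeq held promoters for 8 of the 10 genes, and Mmp9 and Mmp19 had none in the table used. The 250 bases before the start are printed for Mmp8 and for both starts of Mmp12, because these were the only windows with a match to the 2 motifs in capitals, the AP-1 motif TGANTCA and the ETS-type motif GAGGAA, each searched on both strands. All 3 are on the plus strand of GRCm38.p6, at chr9:7558179-7558428 for Mmp8, chr9:7344147-7344396 for the first start of Mmp12 and chr9:7347124-7347373 for the second.
Mmp8: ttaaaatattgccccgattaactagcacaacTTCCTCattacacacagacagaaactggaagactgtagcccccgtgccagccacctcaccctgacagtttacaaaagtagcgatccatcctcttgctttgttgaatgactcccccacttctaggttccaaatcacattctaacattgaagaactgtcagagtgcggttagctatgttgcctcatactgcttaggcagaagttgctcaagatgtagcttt
Mmp12 first start: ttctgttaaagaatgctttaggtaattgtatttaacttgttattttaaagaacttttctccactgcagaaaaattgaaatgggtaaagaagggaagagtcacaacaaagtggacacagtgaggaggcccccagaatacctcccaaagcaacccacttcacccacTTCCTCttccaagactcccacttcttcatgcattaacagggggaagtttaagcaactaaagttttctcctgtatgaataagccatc
Mmp12 second start: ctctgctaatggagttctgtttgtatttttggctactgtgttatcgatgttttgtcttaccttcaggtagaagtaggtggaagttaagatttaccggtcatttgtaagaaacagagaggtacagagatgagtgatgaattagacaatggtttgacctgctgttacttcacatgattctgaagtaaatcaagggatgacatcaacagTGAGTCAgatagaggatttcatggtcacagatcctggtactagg
The capitals are GAGGAA read on the minus strand, 219 bases before the Mmp8 start and 86 bases before the first Mmp12 start, and TGAGTCA, 44 bases before the second Mmp12 start. AGGTCA, the half-site of many nuclear receptors, was found once, on the minus strand 99 bases before the second Mmp12 start, and TATAAA was found in none of the 9 windows. None of these matches overlapped. Of all 32851 windows of this length, 6.75% held TGANTCA, 23.3% GAGGAA, 14% AGGTCA and 12.4% TATAAA. A match is a string of letters in the window and is not evidence of a bound factor.

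All 10 genes had a higher mean in the KO libraries than in the WT libraries. For 8 of them every KO library lay above every WT library, an arrangement found for 9.75% of the 10732 genes tested. None of the 10 passed the test across all genes, limma with Benjamini-Hochberg adjustment at 0.05, which called 3 genes higher in KO, 0.028% of those tested, and 0 lower. At an unadjusted limma p under 0.05, 9 of the 10 were higher in KO, against 8.86% of all genes tested (951 genes) and 881 genes lower, and limma's voom on reads recovered from the FPKM steps also called 0 of the 10. The median difference of the 10 was 1.21 on the log2(FPKM + 1) scale, beside -0.06 for all genes tested, of which 35.4% were positive. The genes were chosen with results of these data known, so these counts describe them and do not set them apart.

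**Figure D1:**
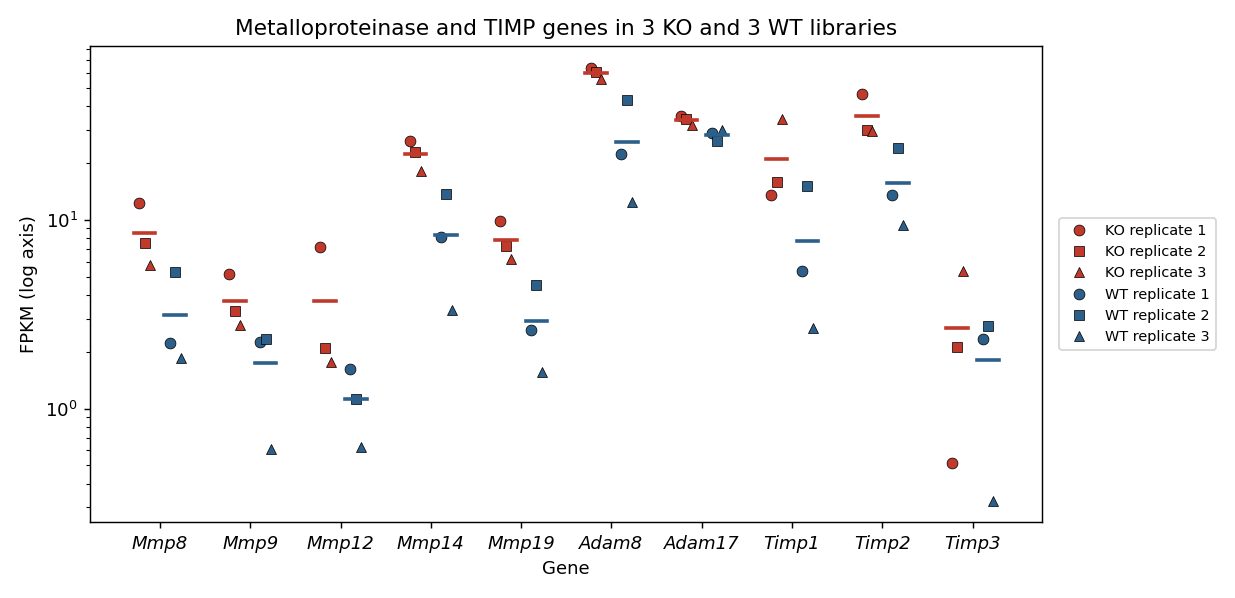
FPKM of each gene on a log axis in the 3 KO libraries (red) and the 3 WT libraries (blue), with the replicate number as the symbol and a bar at the group mean. KO libraries lay above all WT libraries for 8 genes, while the groups overlapped for Timp1 and Timp3.

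Single libraries were high or low for most of the 10 genes. Among the WT libraries replicate 2 was the highest for 8 of the 10 genes, and WT replicate 3 was the lowest of all 6 libraries for 9 of the 10. KO replicate 1 was the highest of all 6 libraries for 8 of the 10. Without WT replicate 2, limma called 6 of the 10 genes higher in KO, namely Adam8, Mmp8, Mmp14, Mmp19, Timp1 and Timp2, where 4.66% of all genes tested were called higher (500 genes). Without each of the other 5 libraries in turn, none of the 10 was called.

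The RNA in these libraries was mainly of B cell and macrophage kind by the marker lists. The 8 B cell markers present summed to 3974 to 4359 FPKM in KO libraries and to 4496 to 5185 FPKM in WT libraries. The 22 peritoneal macrophage markers summed to 21962, 12051 and 8961 FPKM in KO replicates 1 to 3, against 3629, 8081 and 2451 FPKM in WT replicates 1 to 3. Their mean on the log2(FPKM + 1) scale, over 21 markers that averaged 1 FPKM or more, was 5.80 ± 0.57 in KO and 4.34 ± 0.57 in WT (SD, n = 3 each; exact two-sided permutation p = 0.1, the smallest that 3 against 3 allows). The 13 microglia markers present summed to 117 to 137 FPKM in KO libraries and to 103 to 132 FPKM in WT libraries, and 7 of them averaged 1 FPKM or more. Among them, Tmem119 stood at 2.24, 2.14 and 2.43 FPKM in KO replicates 1 to 3, against 0.461, 1.04 and 0.203 FPKM in WT replicates 1 to 3, above WT in every KO library (adjusted p = 0.10 by limma). That arrangement was found for 9.75% of all genes tested, and Tmem119 averaged only 0.567 FPKM in WT. P2ry12 had overlapping groups, at 0.457, 0.587 and 1.09 FPKM in KO and 0.801, 0.585 and 0.268 FPKM in WT. Sall1 was near 0 throughout, at 0.00449, 0 and 0 FPKM in KO and 0.152, 0.0419 and 0 FPKM in WT. Ppara itself stood at 0.0270 to 0.0588 FPKM in KO and 0.00259 to 0.0290 FPKM in WT, too low to check the labels. The knockout belongs to the microglia donors, so Ppara RNA of the added CD45.1 macrophages could not check the labels at any level. In bulk libraries such as these, fewer cells of a type and less RNA per cell cannot be told apart.

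Mmp14, the only membrane-anchored enzyme among the 5 Mmp genes, on chromosome 14 from 54431612 to 54445364 (plus strand), encodes MT1-MMP, which cleaves collagen at the cell surface and activates pro-MMP2. Its level was 26.2, 22.8 and 18.2 FPKM in KO replicates 1 to 3, against 8.07, 13.6 and 3.31 FPKM in WT replicates 1 to 3. The groups did not overlap, and the lowest KO library was 1.33 times the highest WT library. The means were 22.4 ± 4.02 FPKM in KO and 8.33 ± 5.16 FPKM in WT (SD, n = 3 each), 2.69 times as high in KO, with a log2 difference of 1.48 (SE 0.40, adjusted p = 0.14 by limma). Mmp14 was the highest of the 5 Mmp genes in every library, at 43.1% to 53.0% of their summed FPKM in KO and 41.6% to 50.7% in WT.

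Mmp19 encodes a secreted protease of basement membrane proteins and lies on chromosome 10 from 128790910 to 128800824 (plus strand). It stood at 9.91, 7.23 and 6.21 FPKM in KO replicates 1 to 3, against 2.62, 4.51 and 1.55 FPKM in WT replicates 1 to 3. The groups were apart for this gene by the widest margin of the 10, with the lowest KO library 1.38 times the highest WT library. It also had the smallest p of the 10, at rank 252 among the genes tested, with a log2 difference of 1.22 (SE 0.28, adjusted p = 0.12 by limma). The means were 7.78 ± 1.91 FPKM in KO and 2.90 ± 1.50 FPKM in WT (SD, n = 3 each). An exon of Mmp19 is overlapped by Tmem198b and by a noncoding gene on the other strand, and with no strand setting stated their reads cannot be told apart.

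Mmp9 encodes gelatinase B, which degrades denatured collagen and collagen IV and is the protease most often linked to barrier loss after stroke. It lies on chromosome 2 from 164940780 to 164955850 (plus strand). Its level was low, at 5.17, 3.29 and 2.76 FPKM in KO replicates 1 to 3, against 2.25, 2.33 and 0.613 FPKM in WT replicates 1 to 3. All 3 KO libraries were above all WT libraries, by a factor of 1.18 at the nearest point. On the log2 scale the difference was 0.83 (SE 0.31, adjusted p = 0.24 by limma), and it was 0.49 without WT replicate 3. Reads recovered for Mmp9 numbered 753, 468 and 372 in KO and 311, 328 and 81 in WT.

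Mmp8 and Mmp12, both in the chromosome 9 cluster, encode neutrophil collagenase and macrophage elastase, named for the cells and substrates from which they were first known. Mmp8 stood at 12.3, 7.58 and 5.75 FPKM in KO replicates 1 to 3, against 2.22, 5.30 and 1.85 FPKM in WT replicates 1 to 3. KO replicate 3 was only 1.08 times WT replicate 2, so the groups were barely apart. Its log2 difference was 1.24 (SE 0.34, adjusted p = 0.15 by limma). Mmp12 stood at 7.22, 2.10 and 1.76 FPKM in KO replicates 1 to 3, against 1.61, 1.12 and 0.625 FPKM in WT replicates 1 to 3. KO replicate 1 alone was far above the rest, at 4.10 times KO replicate 3, and without it the log2 difference of 0.99 (SE 0.40, adjusted p = 0.28 by limma) became 0.49. The span of Mmp1b, on the other strand, overlaps an exon of Mmp12. The size of the difference of the low genes moved with the value added before the logarithm: with 5 FPKM added it was 0.73 for Mmp8, 0.38 for Mmp9, 0.45 for Mmp12 and 0.70 for Mmp19. By voom on recovered reads it was 1.53 for Mmp8, 1.27 for Mmp9, 1.52 for Mmp12 and 1.52 for Mmp19, in the same direction.

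Neutrophil markers were given beside both genes because MMP8 and MMP9 are known as neutrophil granule proteins. The 8 neutrophil markers present summed to 33.1 to 50.8 FPKM in KO libraries and to 7.52 to 25.5 FPKM in WT libraries, and 3 of them averaged 1 FPKM or more. Csf3r, the G-CSF receptor, which macrophages also express, made up most of that sum, with 35.2, 26.8 and 21.3 FPKM in KO and 7.20, 13.5 and 5.29 FPKM in WT. S100a8, a calprotectin subunit, stood at 8.44, 7.83 and 8.04 FPKM in KO and 2.39, 7.58 and 0.733 FPKM in WT. Prtn3, the granule protease proteinase 3, stood at 6.34, 2.71 and 3.47 FPKM in KO and 1.19, 3.55 and 1.06 FPKM in WT, with overlapping groups. The other neutrophil genes present, S100a9, Cxcr2, Elane, Retnlg and Camp, reached at most 0.827 FPKM in any library, and Cxcr2 was listed at 0 in all 3 KO libraries. The part of neutrophils in the Mmp8 and Mmp9 values was not tested.

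Of the 10 Mmp genes in the chromosome 9 cluster (7272514 to 7699585), 7 were analysed here. Mmp13, which encodes collagenase 3, stood at 2.71, 0.997 and 0.673 FPKM in KO replicates 1 to 3, against 0.226, 0.606 and 0.0967 FPKM in WT replicates 1 to 3. Mmp27, next to Mmp8, stood at 2.37, 0.888 and 0.739 FPKM in KO, against 0.181, 0.938 and 0.404 FPKM in WT. Both had a mean under 1 FPKM and were not tested. KO replicate 1 was the highest library for 4 of the 7, Mmp8, Mmp12, Mmp13 and Mmp27, while Mmp3, Mmp7 and Mmp10 stayed under 0.2 FPKM in every library. Mmp8 was the highest gene of the cluster in all 6 libraries.

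**Figure D2:**
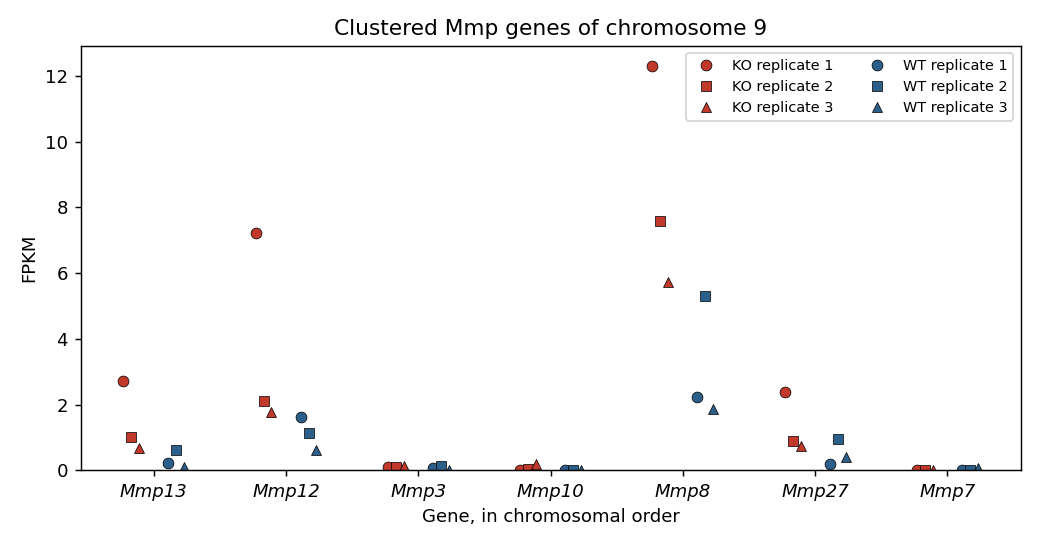
FPKM on a linear axis for the 7 Mmp genes of the chromosome 9 cluster that were analysed, in chromosomal order, in 3 KO libraries (red) and 3 WT libraries (blue), with the replicate number as the symbol. KO replicate 1 was the highest for Mmp13 (2.71 FPKM), Mmp12 (7.22 FPKM), Mmp8 (12.3 FPKM) and Mmp27 (2.37 FPKM).

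By mean over the 6 libraries, Adam8 was highest of the 21 metalloproteinase, ADAM, ADAMTS and TIMP genes averaging 1 FPKM or more. By that mean it ranked 1485 among all genes. In the WT libraries its mean of 25.9 FPKM was below those of Adam10 (34.7 FPKM), Adam17 (28.3 FPKM) and Adam19 (26.8 FPKM). Adam8 encodes a leukocyte surface protease that sheds adhesion molecules, and lies on chromosome 7 from 139978932 to 139992562 (minus strand). It stood at 64.1, 60.4 and 55.9 FPKM in KO replicates 1 to 3, against 22.3, 43.2 and 12.4 FPKM in WT replicates 1 to 3. The KO libraries were within a factor of 1.15 of each other, while the WT libraries spread over a factor of 3.49. The log2 difference was 1.35 (SE 0.37, adjusted p = 0.15 by limma) with all libraries. It was 1.79 (SE 0.22, adjusted p = 0.010 by limma) without WT replicate 2, the highest WT library, whose removal raises the difference. Without WT replicate 3, the lowest library, it fell to 0.93 (SE 0.25, adjusted p = 0.27 by limma). A noncoding gene on the other strand touches an exon of Adam8.

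Adam17, on chromosome 12 from 21323509 to 21373632 (minus strand), was the steadiest of the 10. It stood at 35.5, 34.1 and 31.9 FPKM in KO replicates 1 to 3, against 28.8, 26.2 and 29.8 FPKM in WT replicates 1 to 3. The groups did not overlap, but the means of 33.8 ± 1.78 FPKM in KO and 28.3 ± 1.89 FPKM in WT (SD, n = 3 each) differed by a factor of only 1.20. This corresponds to a log2 difference of 0.25 (SE 0.09, adjusted p = 0.21 by limma). The span of Iah1, on the other strand, overlaps an exon of Adam17.

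**Figure D3:**
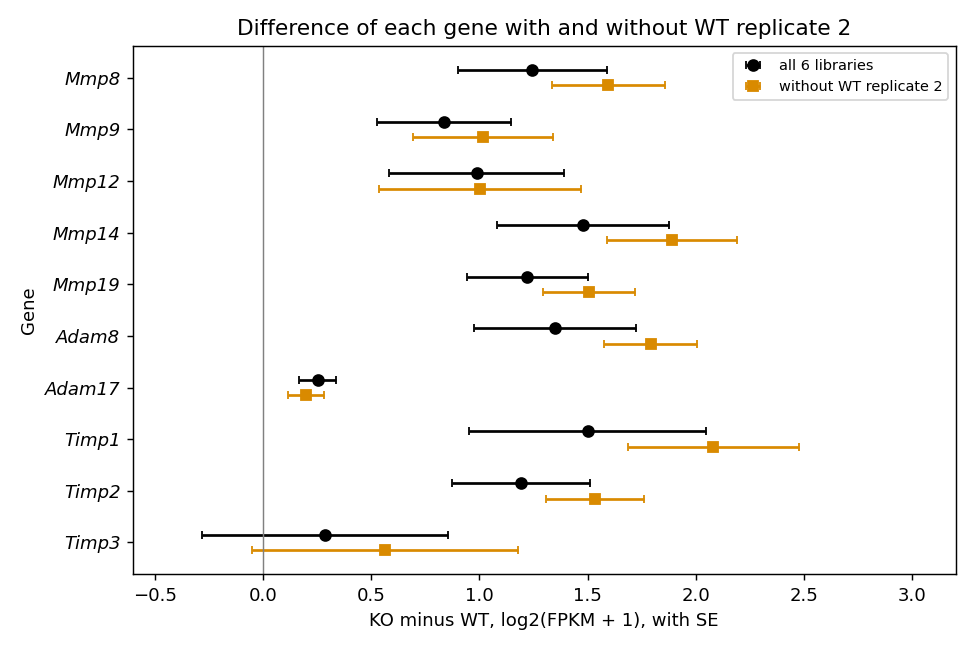
KO minus WT difference of each gene in log2(FPKM + 1), with its standard error from limma, for all 6 libraries (black circles) and without WT replicate 2 (orange squares). Adam17 had a small difference with a small error (0.25, SE 0.09), and Timp3 a small one with a large error (0.29, SE 0.57).

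Among the inhibitors, Timp2 was the highest on average. It encodes an inhibitor that also takes part in pro-MMP2 activation by MMP14, and lies on chromosome 11 from 118301069 to 118355740 (minus strand). Timp2 stood at 46.5, 30.1 and 29.5 FPKM in KO replicates 1 to 3, against 13.5, 24.0 and 9.40 FPKM in WT replicates 1 to 3. No KO library fell within the WT range. The log2 difference was 1.19 (SE 0.32, adjusted p = 0.14 by limma). Its nearest gene among the 10, by Euclidean distance between log2(FPKM + 1) values centred over the 6 libraries, was Mmp19 (distance 0.21), the closest pair of the 10.

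Timp1, an inducible inhibitor with growth factor-like activity, lies on chromosome X from 20870166 to 20874735 (plus strand). The span of Syn1, on the other strand, overlaps an exon of Timp1. Timp1 stood at 13.5, 15.8 and 34.1 FPKM in KO replicates 1 to 3, against 5.35, 15.2 and 2.68 FPKM in WT replicates 1 to 3. The groups overlapped, since WT replicate 2 was above KO replicate 1, and KO replicate 3 was far above the rest. The means were 21.1 ± 11.3 FPKM in KO and 7.73 ± 6.57 FPKM in WT (SD, n = 3 each). The log2 difference was 1.50 (SE 0.55, adjusted p = 0.24 by limma) with all libraries. It was 2.08 (SE 0.40, adjusted p = 0.033 by limma) without WT replicate 2, the highest WT library, whose removal raises the difference. Without KO replicate 3 it fell to 1.11 (SE 0.55, adjusted p = 0.40 by limma). It was lower still without WT replicate 3, the lowest library (adjusted p = 0.49 by limma).

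Timp3 encodes the inhibitor that is held in the matrix and that blocks ADAM17 as well as MMPs. It lies on chromosome 10 from 86300372 to 86349506 (plus strand) and overlaps Syn3 on the other strand. It stood at 0.512, 2.13 and 5.38 FPKM in KO replicates 1 to 3, against 2.34, 2.75 and 0.325 FPKM in WT replicates 1 to 3. The libraries of the groups were interleaved, with a factor of 10.5 between the KO libraries and 8.46 between the WT libraries. Its log2 difference was 0.29 (SE 0.57, adjusted p = 0.82 by limma), and leaving out single libraries moved it between -0.23, without KO replicate 3, and 0.81, without KO replicate 1. It was -0.19 without WT replicate 3, 0.48 without WT replicate 1 and 0.57 without WT replicate 2.

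Fibroblast and mesothelial markers were given beside Timp1 and Timp3, since TIMPs are known as products of stromal cells. The 11 markers present summed to 6.39, 14.4 and 38.9 FPKM in KO replicates 1 to 3, against 5.61, 25.0 and 4.88 FPKM in WT replicates 1 to 3. Only 4 of them averaged 1 FPKM or more. Their sum was highest in KO replicate 3, then in WT replicate 2, and these were also the top libraries for Timp3. Timp3 came next in WT replicate 1 (2.34 FPKM), where the marker sum was 5.61 FPKM. In KO replicate 2 Timp3 was at 2.13 FPKM, beside a marker sum of 14.4 FPKM. For Timp1, KO replicate 2 and WT replicate 2 were close (15.8 and 15.2 FPKM). Col1a1, type I collagen, stood at 1.17, 5.13 and 14.2 FPKM in KO and 1.09, 6.92 and 0.339 FPKM in WT, while Lum, Pdgfra, Msln and Upk3b were near 0 in every library. The part of these cells in the TIMP values was not tested.

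Summed over the 3 inhibitors, the level was 60.5, 48.0 and 69.0 FPKM in KO replicates 1 to 3, against 21.2, 41.9 and 12.4 FPKM in WT replicates 1 to 3. The 5 Mmp genes summed to 60.8, 43.0 and 34.7 FPKM in KO and to 16.8, 26.9 and 7.96 FPKM in WT. Both sums were higher in every KO library than in any WT library, an arrangement found for 9.75% of single genes tested. Each had an exact two-sided permutation p of 0.1, the smallest possible. For the Mmp sum this outcome was fixed, since all 5 genes had every KO library above every WT library. Among the inhibitors only Timp2 had that arrangement. The ratio of the TIMP sum to the Mmp sum was 1.37 ± 0.54 in KO and 1.46 ± 0.17 in WT (SD, n = 3 each; exact two-sided permutation p = 0.8), and its groups overlapped. It ran from 0.995 in KO replicate 1 to 1.99 in KO replicate 3. Timp2 made up 76.9%, 62.6% and 42.8% of the TIMP sum in KO and 63.7%, 57.2% and 75.8% in WT, so the KO range enclosed the WT range. These sums were formed after the values were seen, and they describe RNA, not inhibitor or enzyme activity.

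**Figure D4:**
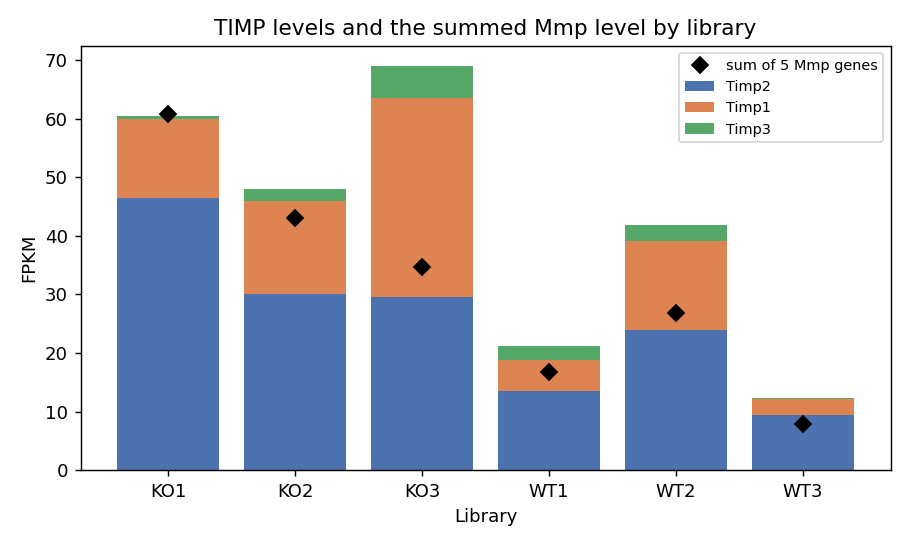
Stacked FPKM of Timp2, Timp1 and Timp3 in each library, with diamonds for the summed FPKM of the 5 Mmp genes. The TIMP stack was tallest in KO replicate 3 (69.0 FPKM), where Timp1 made up 49.4% of it, and shortest in WT replicate 3 (12.4 FPKM).

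The macrophage marker mean differed by 1.45 (log2) between KO and WT, and its value in each library was set beside each gene. On this relative scale a gene with equal levels in both groups would stand at -1.45, and the median of all genes tested was -1.51. Subtracting the marker mean left a difference near 0 for Mmp14 (0.03), Timp1 (0.05) and Adam8 (-0.10), with exact two-sided permutation p-values of 0.6, 0.9 and 0.8. It was negative for Mmp8 (-0.21), Mmp19 (-0.23), Timp2 (-0.26) and Mmp12 (-0.46), whose groups overlapped (p from 0.2 to 0.3). For Mmp9 (-0.62) and Adam17 (-1.20) every KO library was below every WT library on this relative scale, each at an exact permutation p of 0.1. The same held for 92.2% of all genes tested, so it does not set Mmp9 and Adam17 apart. Timp3 had a relative difference of -1.16 with overlapping groups (exact permutation p = 0.3). These were 10 tests, none of which could reach 0.05 with 3 libraries a group. For low genes such as Mmp9 and Mmp12 the added 1 FPKM shrinks the change, which lowers this relative value. The part of the macrophage share in the differences was not tested.

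**Figure D5:**
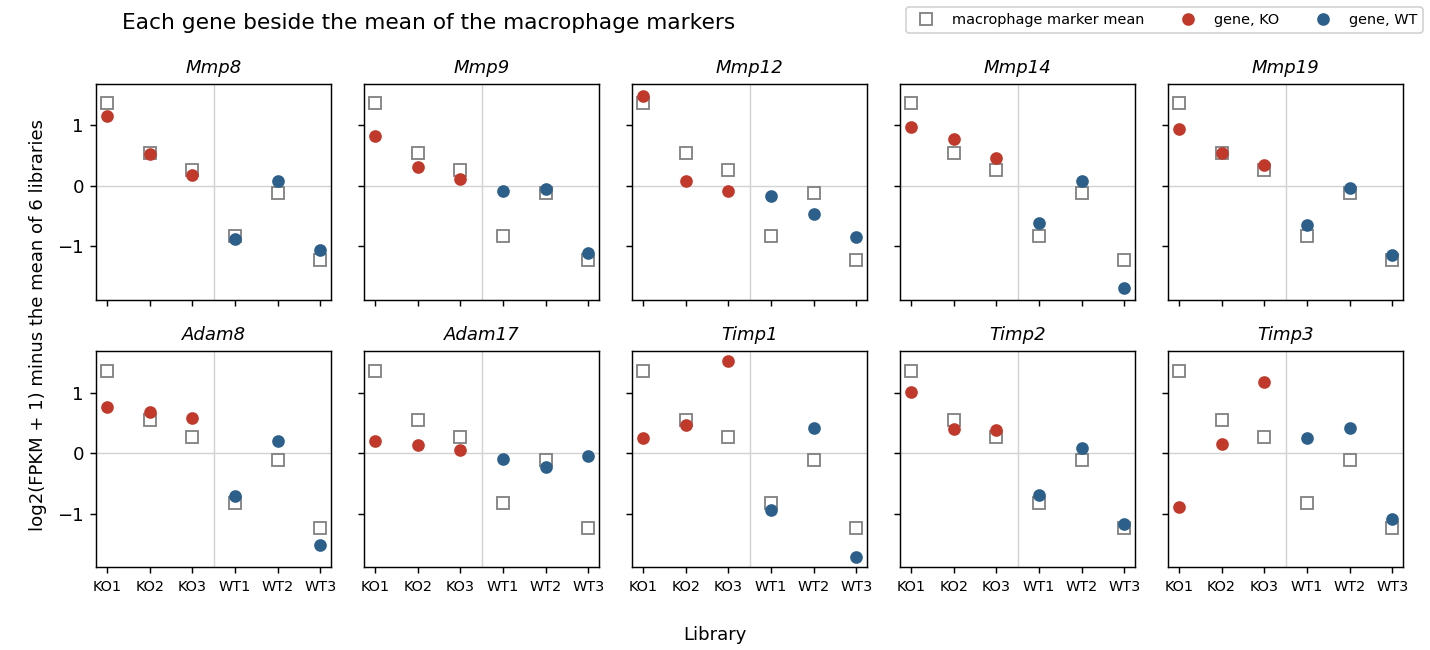
Each gene's log2(FPKM + 1) minus its mean over the 6 libraries (filled circles, KO red, WT blue) beside the mean of 21 macrophage markers treated in the same way (open squares). Mmp8, Mmp19 and Timp2 lay close to the marker mean in most libraries, Adam17 stayed near 0 throughout, and Timp1 and Timp3 stood highest in KO replicate 3.

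Genes whose pattern lay near were named for the 3 members with the smallest p. Nearest to Mmp19 were Cmtm3 (distance 0.13), Acp2 (0.13) and Plxdc2 (0.16). Nearest to Timp2 were Plxdc2 (0.17), St3gal5 (0.17) and S100a1 (0.19). Among the nearest to Mmp14 were Sel1l3 (0.23) and Rab32 (0.24).

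Other genes of the same families differed in direction. Of 56 further Mmp, Adam, Adamts and Timp genes and Reck, 11 averaged 1 FPKM or more, 5 of them with a positive difference, and the median was -0.13. None passed the limma test over all genes, and at an unadjusted limma p under 0.05 there were 3 higher and 2 lower. At that level 8.86% of all genes tested were higher (951 genes) and 881 genes were lower. Adam10, the main shedding enzyme besides ADAM17, stood at 37.2 ± 1.22 FPKM in KO and 34.7 ± 6.26 FPKM in WT (SD, n = 3 each). Adam9 stood at 18.6 ± 2.06 and Adam15 at 32.9 ± 6.91 FPKM in KO, against 11.1 ± 1.70 and 15.2 ± 9.52 FPKM in WT. For both every KO library was above every WT library, with limma adjusted p = 0.11 for Adam9 and 0.20 for Adam15. Adamts10, a fibrillin-associated member of the family, went the other way, at 13.1 ± 1.25 FPKM in KO and 16.8 ± 1.74 FPKM in WT, with groups apart (log2 difference -0.34, limma adjusted p = 0.19). Every KO library was below every WT library for 15.2% of all genes tested. Adam19, Mmp25, Adamts6 and Adamtsl4 had overlapping groups, with log2 differences from -0.25 to 0.01.

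Of the genes that activate or restrain these enzymes, none was called over all genes by limma. Of all genes tested, 35.4% had a positive difference and 8.86% were higher in KO at an unadjusted limma p under 0.05. Some genes, such as Lrp1, Cd44 and Tnf, are in several of the lists, so the counts of the lists are not separate. In the list of maturation, trafficking and surface regulators, 16 of 24 were tested, 10 were positive with a median of 0.06, and 3 higher and 1 lower had an unadjusted limma p under 0.05. Lrp1, the endocytic receptor that clears MMP9 and TIMP complexes and is also on the macrophage marker list, stood at 27.3 ± 1.06 FPKM in KO and 10.4 ± 5.37 FPKM in WT. Cd44, a docking site for MMP9 and MMP14, stood at 37.3 ± 2.39 FPKM in KO and 27.9 ± 3.37 FPKM in WT. Of 9 plasminogen activation genes tested, 7 were positive with a median of 0.56, and 4 higher and 0 lower had an unadjusted limma p under 0.05. Serpinb2, a serpin that blocks urokinase, had a level of 521 ± 152 FPKM in KO and 155 ± 72.4 FPKM in WT (SD, n = 3 each).

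The lists of substrates and inducers were described in the same way, and no gene of them was called over all genes by limma. Their counts also stand beside 8.86% of all genes tested that were higher in KO at an unadjusted limma p under 0.05. Of 20 tested substrates of ADAM17 and ADAM8, 15 were positive with a median of 0.12, and 8 higher and 1 lower had an unadjusted limma p under 0.05. Mertk, a receptor for dying cells that ADAM17 sheds and that is also a macrophage marker here, stood at 6.34 ± 1.27 FPKM in KO and 1.78 ± 0.667 FPKM in WT. Notch1, whose receptor is cut by ADAM proteases during signalling, stood at 16.6 ± 1.11 FPKM in KO and 11.1 ± 1.15 FPKM in WT. Of 15 tested matrix and other MMP substrates, 12 were positive with a median of 0.73, and 6 higher and 0 lower had an unadjusted limma p under 0.05. Vcan, the proteoglycan versican, stood at 27.5 ± 4.96 FPKM in KO and 8.17 ± 2.64 FPKM in WT, and Thbs1 at 1537 ± 168 FPKM in KO and 408 ± 161 FPKM in WT (SD, n = 3 each). Of 21 tested AP-1, NF-kB and related inducers, 14 were positive with a median of 0.20, and 6 higher and 0 lower had an unadjusted limma p under 0.05. Ets2, a factor of the family that binds GAGGAA-like motifs, stood at 31.4 ± 0.549 FPKM in KO and 16.0 ± 3.80 FPKM in WT, and the cytokine gene Il1b at 180 ± 23.4 FPKM in KO and 60.1 ± 26.5 FPKM in WT.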

How the data were processed

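RNA sequencing values of 3 KO and 3 WT libraries were used as deposited by the authors in FPKM (21399 gene symbols each). The submitters' processing notes name mm10 as the build, and the aligner, counter, annotation and strand setting were not stated in the labels or headers. Groups came from sample titles. The 10732 genes that averaged 1 FPKM or more were compared on log2(FPKM + 1), unscaled. The test was limma 3.58.1, run in R 4.3.3 with a trended eBayes fit and Benjamini-Hochberg adjustment at 0.05. Fold changes on this scale understate the change of low genes. FPKM were whole multiples of 1 read per gene and library, which gave back reads within 0.002 for 18092 of 18092 genes examined, up to a factor common to all libraries of a gene. They summed to 38092201, 37214014 and 35289099 in KO and 36062623, 36726700 and 34541898 in WT replicates 1 to 3. For single values, two-sided exact permutation tests were used. Fits and read recovery were tested on simulated data. The 10 genes and the lists were chosen with earlier results of these data known. Named were all 10 genes, the 8 highest other family genes, the 2 smallest p of each other list and the 3 nearest genes of 3 members. Some genes that this rule picks are not reported here. Alternatives were other pseudocounts, filters and scalings, no trend, a replicate block, voom and leaving out each library. Promoters came from RefSeq (GRCm38.p6) and positions from GENCODE M21. Python 3.11.15, pandas 2.3.3, numpy 2.4.6, scipy 1.17.1 and matplotlib 3.10.9 were used.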

Additional observations from a re-analysis of the deposited data

How the results depend on the processing

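The 16 alternative limma fits of the same libraries gave 157 differences of single genes among the 10. Of these, 149 kept their sign and their side of the threshold, 6 passed the threshold (all without WT replicate 2), and 2 changed sign. Both sign changes were of Timp3, without KO replicate 3 (-0.23) and without WT replicate 3 (-0.19), and its highest value was 0.81, without KO replicate 1. Subtracting the macrophage marker mean, which gives no adjusted p, left Mmp14 at 0.03, Timp1 at 0.05 and the other 8 negative. These were Mmp8 at -0.21, Mmp9 at -0.62, Mmp12 at -0.46, Mmp19 at -0.23, Adam8 at -0.10, Adam17 at -1.20, Timp2 at -0.26 and Timp3 at -1.16. On this relative scale a gene with equal levels in both groups would stand at -1.45, and the median of all genes tested was -1.51. A negative value here is therefore not a reversed difference between KO and WT. The count of 3 genes higher in KO was 6 with a pseudocount of 5, 0 with no filter and 5 by voom on recovered reads. Leaving out 1 library gave 0 to 500 genes higher, 0 to 38 lower and 0 to 6 of the 10 genes called, where the highest values came without WT replicate 2. The count of genes higher was 0 without WT replicate 1 or 3, 1 without KO replicate 1 or 2 and 2 without KO replicate 3. Over the settings without the marker mean, log2 differences ran from 0.38 to 1.27 for Mmp9 and from 0.45 to 1.52 for Mmp12, the lower ends with a pseudocount of 5 and the upper ends by voom, and Mmp9 was at 0.49 without WT replicate 3. With the replicate number as a block, 11 genes were higher and none of the 10 was called. Deviations of same-numbered libraries from their group means correlated at -0.21, -0.38 and 0.27 for replicates 1 to 3. With 3 libraries a group, these values cannot decide whether the numbers pair the libraries, and the labels do not say what a number shares.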

Other observations

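A further pair of genes of these families, chosen after their values were seen, had groups that did not overlap and lay outside the named genes. Of all genes tested, 9.75% had every KO library above every WT library and 15.2% had every KO library below. Adamtsl5 encodes a secreted microfibril-associated protein without protease activity. It stood at 4.54, 2.63 and 1.80 FPKM in KO replicates 1 to 3, against 0.599, 1.51 and 0.368 FPKM in WT replicates 1 to 3. The log2 difference was 1.12 (SE 0.30, adjusted p = 0.14 by limma). With a WT mean of 0.826 FPKM, Adamtsl5 reached the 1 FPKM needed for testing only through its KO mean of 2.99 FPKM. Mmp11, stromelysin 3, was lower in every KO library, at 1.04, 0.851 and 1.38 FPKM in KO against 1.90, 1.57 and 1.39 FPKM in WT (log2 difference -0.33, SE 0.13, adjusted p = 0.27 by limma). Its groups were barely apart, since KO replicate 3 and WT replicate 3 had 112 and 111 recovered reads. Mmp10, which encodes stromelysin 2, was listed at 0 in KO replicate 1 and in all 3 WT libraries, and at 0.0308 and 0.195 FPKM in KO replicates 2 and 3.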
